A study of Mus musculus with 12 samples.

Results

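The 10 genes described here encode the recombinase that cuts antigen receptor gene segments and the end-joining proteins that repair the cuts. They were taken by gene symbol, as Rag1, Rag2, Dntt, Prkdc, Dclre1c, Xrcc4, Xrcc5, Xrcc6, Lig4 and Nhej1. All 10 were among the 12151 genes measured by RNA-seq in 12 libraries of mouse pre-B cells that had been transformed with BCR-ABL1, the fusion oncogene of a subtype of B cell leukemia (B-ALL).

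The libraries fell into 4 groups of 3 replicates. Every cell carried BCR-ABL1 and the Ctnnb1Ex3fl/+ genotype, in which exon 3 of 1 allele of the β-catenin gene can be removed by Cre, and the excised allele gives a β-catenin that escapes degradation. ERT2 WT cells had received nontargeting CRISPR guides (sgNTC) and a vector for ERT2, the tamoxifen-binding domain alone. Cre-ERT2 WT cells had the same guides and a vector for Cre-ERT2, whose Cre acts after 4-hydroxytamoxifen (4-OHT). ERT2 KO and Cre-ERT2 KO cells had guides to Ikzf1 and Ikzf3, which encode the transcription factors Ikaros and Aiolos. The lines grew from bone marrow of mice aged 6 to 12 weeks, first with 10 ng/ml IL-7 and then without it, came from single edited cells and were sorted for GFP. The protocol gives day 1 after 4-OHT, in a sentence about chromatin experiments, and this day was taken for all 12 libraries, ERT2 controls included. For another RNA-seq experiment on such cells, the paper describes 4-OHT treatment of cells with either vector. Clones were not assigned to libraries, so clone and genotype cannot be told apart, nor can excision of the exon and the activity of Cre. The labels do not say whether replicates are separate cultures, and p-values then measure only the spread between these libraries, which may be technical.

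V(D)J recombination assembles immunoglobulin genes in developing B cells. RAG1 and RAG2 cut the DNA beside a gene segment and leave hairpin ends. Ku70 and Ku80 hold the ends and recruit the kinase DNA-PKcs, the nuclease Artemis opens the hairpins, terminal deoxynucleotidyl transferase (TdT) adds nucleotides without a template, and XRCC4, XLF and DNA ligase IV seal the joint. Pre-B cells rearrange the light chain loci, and RAG levels are known to fall while the cells divide.

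Values are the authors' normalized log2 expression. Library medians lay between 9.06 and 9.11. The table holds no read counts, so the depth of each library is unknown. All 12 pre-B cell markers were in the table and above the median gene, with group means from 11.92 to 15.20. None of 5 T cell or 4 erythroid markers was in the table, and 2 of 5 myeloid markers were (Itgam and Lyz2), both below the median gene. The summed pre-B markers were lower in KO libraries (16.70 to 16.77 on the log2 scale) than in WT libraries (17.29 to 17.33). The 2 myeloid markers moved in opposite directions, with Lyz2 higher in KO (group means of 8.40 and 8.61) than in WT (7.41 and 7.38) and Itgam lower in KO (4.51 and 4.52) than in WT (4.66 and 4.70). Their sum was 8.45 to 8.76 in KO and 7.57 to 7.62 in WT libraries. The part of these markers in the results below was not tested. In bulk RNA, fewer cells of a type and less RNA per cell cannot be told apart.

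The edited genes were examined first. Ikzf3 mRNA fell in KO libraries, by 0.65 in ERT2 and by 0.70 in Cre-ERT2 cells on the log2 scale. Ikzf1 mRNA was higher in KO, at 14.56 to 14.76 in the 6 KO libraries against 13.66 to 13.75 in the 6 WT libraries. The mRNA level of Ikzf1 therefore does not show the knockout, and an edit that breaks the reading frame need not lower it. The paper reports that deletion was checked by western blot in its clonal lines, which is protein evidence outside these data. WT and KO stand for the labels of the libraries throughout. Ctnnb1 mRNA was 0.065 higher in Cre-ERT2 than in ERT2 libraries in WT cells and 0.13 higher in KO cells.

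The promoters of the 6 genes with the largest responses are shown from RefSeq (build GRCm38.p6), from 250 bases before to 50 bases after the start of transcription, because the KO cells were edited in the genes of factors that bind DNA at the core letters GGGAA. Each run reads 5′ to 3′ on the strand of the gene, and capitals mark GGGAA or its reverse complement TTCCC. Rag1 lies on the minus strand of chromosome 2, Rag2 on the plus strand of the same chromosome, and the 2 genes point toward each other with 5752 bases between their ends. Lig4, on the minus strand of chromosome 8, has 2 start sites in RefSeq.
Rag1, chr2:101649483-101649782, minus strand: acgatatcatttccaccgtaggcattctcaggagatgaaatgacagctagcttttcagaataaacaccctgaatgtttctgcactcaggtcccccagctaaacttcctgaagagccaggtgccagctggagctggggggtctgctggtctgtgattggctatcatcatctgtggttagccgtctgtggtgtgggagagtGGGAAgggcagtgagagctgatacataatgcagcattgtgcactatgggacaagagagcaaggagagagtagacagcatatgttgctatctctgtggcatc
Rag2, chr2:101624462-101624761, plus strand: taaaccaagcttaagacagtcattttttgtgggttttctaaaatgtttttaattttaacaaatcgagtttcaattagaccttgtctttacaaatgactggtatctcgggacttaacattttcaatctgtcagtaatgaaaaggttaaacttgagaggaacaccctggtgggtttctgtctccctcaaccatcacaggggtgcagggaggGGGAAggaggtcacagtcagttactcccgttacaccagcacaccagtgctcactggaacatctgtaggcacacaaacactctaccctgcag
Dntt, chr19:41029025-41029324, plus strand: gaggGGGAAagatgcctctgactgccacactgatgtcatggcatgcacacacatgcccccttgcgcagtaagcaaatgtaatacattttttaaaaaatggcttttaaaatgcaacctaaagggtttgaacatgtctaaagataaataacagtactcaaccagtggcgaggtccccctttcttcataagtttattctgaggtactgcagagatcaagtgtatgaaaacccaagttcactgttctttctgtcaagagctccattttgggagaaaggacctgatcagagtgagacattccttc
Xrcc6, chr15:82016119-82016418, plus strand: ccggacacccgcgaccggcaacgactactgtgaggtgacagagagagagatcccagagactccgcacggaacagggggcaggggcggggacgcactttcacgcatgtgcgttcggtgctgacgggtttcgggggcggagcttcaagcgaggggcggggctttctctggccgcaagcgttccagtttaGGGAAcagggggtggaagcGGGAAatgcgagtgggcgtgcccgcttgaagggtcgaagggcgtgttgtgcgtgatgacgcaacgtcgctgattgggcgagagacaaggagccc
Xrcc5, chr1:72307171-72307470, plus strand: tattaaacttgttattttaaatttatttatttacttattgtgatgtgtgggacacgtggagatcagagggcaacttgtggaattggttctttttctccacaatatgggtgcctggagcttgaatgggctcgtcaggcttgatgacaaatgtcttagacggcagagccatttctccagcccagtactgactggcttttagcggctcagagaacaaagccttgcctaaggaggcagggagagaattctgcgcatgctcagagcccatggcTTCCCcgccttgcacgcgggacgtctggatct
Lig4 upstream start, chr8:9977631-9977930, minus strand: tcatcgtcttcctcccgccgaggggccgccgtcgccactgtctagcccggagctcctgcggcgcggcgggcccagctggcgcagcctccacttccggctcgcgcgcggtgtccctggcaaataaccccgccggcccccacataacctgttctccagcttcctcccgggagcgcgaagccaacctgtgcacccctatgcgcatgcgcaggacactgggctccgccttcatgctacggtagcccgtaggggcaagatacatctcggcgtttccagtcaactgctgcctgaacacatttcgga
Lig4 downstream start, chr8:9976262-9976561, minus strand: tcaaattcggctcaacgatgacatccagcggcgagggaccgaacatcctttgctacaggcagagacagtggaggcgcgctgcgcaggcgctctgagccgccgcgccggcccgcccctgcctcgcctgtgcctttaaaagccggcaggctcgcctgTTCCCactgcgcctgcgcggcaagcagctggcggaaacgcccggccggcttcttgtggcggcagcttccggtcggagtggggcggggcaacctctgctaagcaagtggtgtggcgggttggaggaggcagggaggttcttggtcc
A GGGAA core was found in 8 of the 10 windows, in either orientation, and in 8 of the 9 genes that had one. That is common, as 62.7% of 32851 RefSeq promoters of this length held it. Counted from the start of transcription, the match began at −51 in Rag1, −41 in Rag2, −246 in Dntt, −63 and −44 in Xrcc6, and +19 in Xrcc5. In Lig4 it was in the downstream window only, at −95. The TCF/LEF core CTTTGA, the letters bound by the DNA-binding partners of β-catenin, was in 1 window, that of Dclre1c, and in 16.0% of all promoters. A match describes these letters and is no evidence of binding. Prkdc had no entry.

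With β-catenin stabilized in WT cells, 4 of the 10 genes rose (Lig4, Dntt, Xrcc5 and Xrcc6) and Rag1 fell. In KO cells Dntt, Lig4 and Prkdc rose and Rag1 fell. KO against WT, Dntt, Xrcc6 and Lig4 fell and Rag1, Rag2 and Xrcc5 rose, in ERT2 and in Cre-ERT2 libraries, and Prkdc rose in Cre-ERT2 libraries. Dclre1c, Xrcc4 and Nhej1 passed the threshold in no comparison. A change is a difference of group means on the log2 scale, called at a Benjamini-Hochberg adjusted p under 0.05 over all 12151 genes in limma.

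Those counts were set beside all genes. The members and lists were chosen with earlier results of these data known. An excess over all genes therefore describes the genes chosen and is no test of the pathway. For β-catenin, 5 of 10 members were called in WT cells, where 11.9% of all genes were, and 4 of 10 in KO cells, where 12.6% were. By direction, 4 members rose in WT cells beside 5.93% of genes and 1 fell beside 5.95%, and in KO cells 3 rose beside 7.27% and 1 fell beside 5.33%. The interaction (the β-catenin effect in KO minus that in WT) was called for 1 member upward beside 2.71% of genes and for 1 downward beside 1.82%. For KO against WT, 6 of 10 members were called in ERT2 cells beside 59.0% of all genes, and 7 of 10 in Cre-ERT2 cells beside 58.9%, a share of members close to that of all genes. Of the genes called, 50.4% were higher in KO in ERT2 and 51.5% in Cre-ERT2 cells, or 37.6% and 38.4% when each library was centred on its median. Centring turned the members from 3 higher and 3 lower into 3 and 4 in ERT2 cells and from 4 and 3 into 3 and 4 in Cre-ERT2 cells. The median absolute change of the members was 0.31, beside 0.10 over all genes, in ERT2 and 0.25, beside 0.11, in Cre-ERT2 cells. The median signed change of the members was −0.0018 and −0.0032 in these 2 comparisons, since rises and falls were of like number. Groups did not overlap in 5 of 10 members for β-catenin in WT (31.1% of all genes), 6 in KO (28.3%), 6 for KO against WT in ERT2 (65.5%) and 7 in Cre-ERT2 libraries (63.6%).

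**Figure D1:**
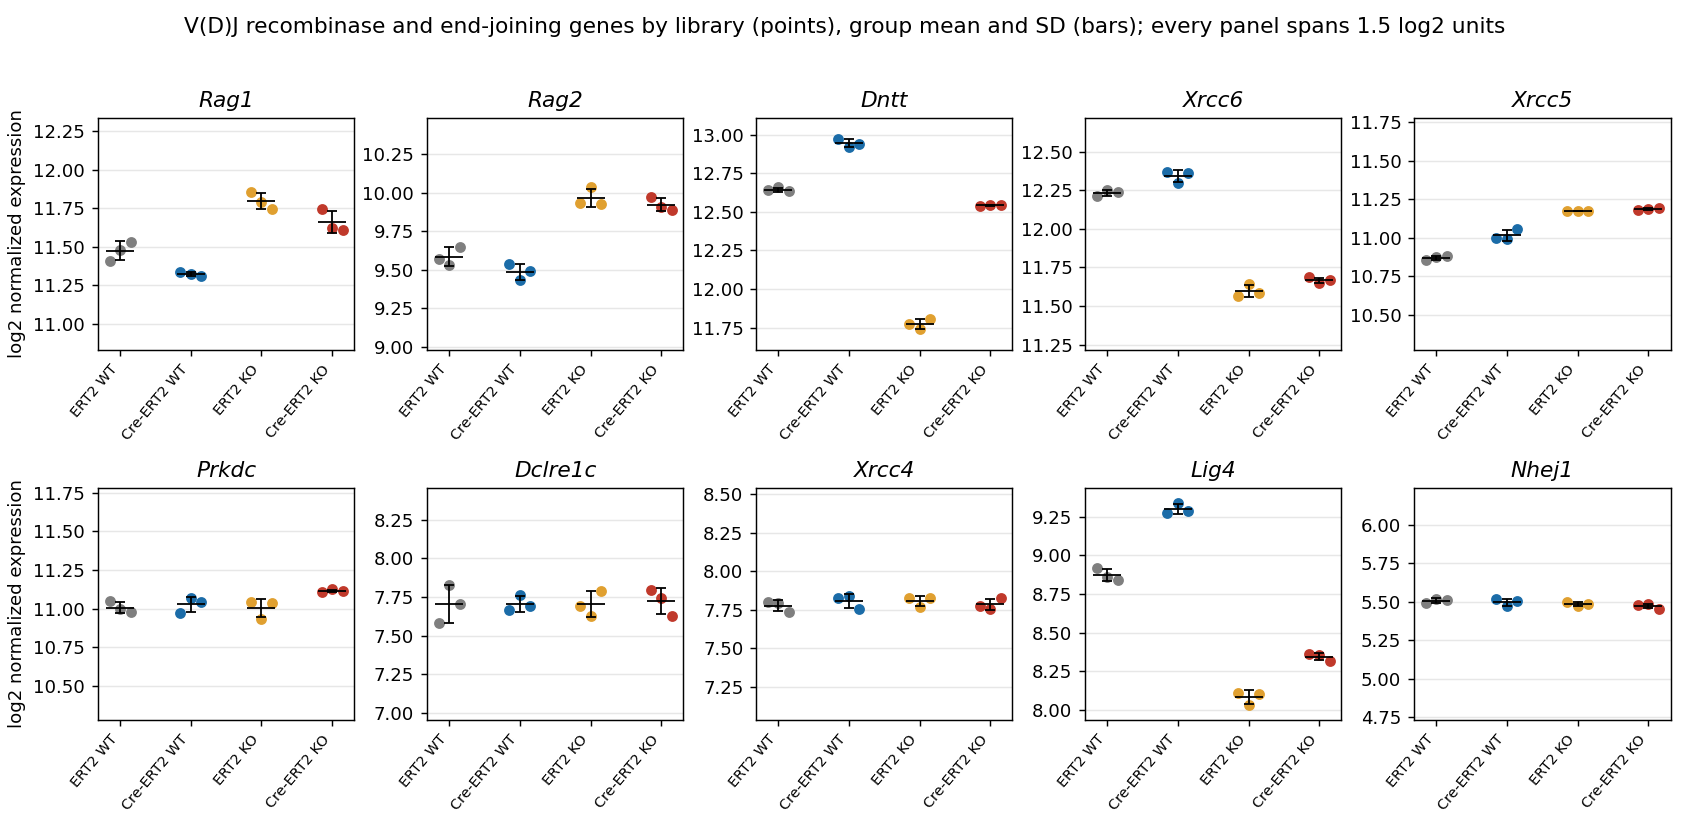
Normalized log2 expression (vertical axes, each spanning 1.5 log2 units) of the 10 genes in the 12 libraries, with points for libraries and bars for the group mean and SD (n = 3). Dntt, Xrcc6 and Lig4 lie lower in the KO groups, Rag1, Rag2 and Xrcc5 lie higher, and Dclre1c, Xrcc4 and Nhej1 overlap between all groups compared.

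Rag1 (chr2:101638282-101649501, coordinates here and below from GENCODE vM21 in GRCm38) encodes the subunit of the recombinase that cuts. Its log2 values were 11.41, 11.48 and 11.53 in ERT2 WT libraries, 11.33, 11.32 and 11.31 in Cre-ERT2 WT, 11.85, 11.79 and 11.75 in ERT2 KO, and 11.74, 11.62 and 11.61 in Cre-ERT2 KO. Every KO library stood above every WT library, and within each genotype the Cre-ERT2 libraries stood below the ERT2 libraries. The rise in KO was 0.32 (SE 0.041, adjusted p = 1.93e-05) in ERT2 and 0.34 (adjusted p = 1.28e-05) in Cre-ERT2 cells. With β-catenin, Rag1 fell by 0.15 in WT (adjusted p = 0.0314) and by 0.14 in KO (adjusted p = 0.0473), and the interaction term was not called (0.014, 95% interval −0.11 to 0.14). The fall in WT lost its call without ERT2 WT replicate 2 or 3 or any 1 of the 3 Cre-ERT2 WT replicates, with values from −0.16 to −0.12 and adjusted p from 0.0702 to 0.113. The fall in KO lost it without ERT2 WT replicate 2, any 1 Cre-ERT2 WT replicate, ERT2 KO replicate 1 or 2, or Cre-ERT2 KO replicate 2 or 3 (values from −0.14 to −0.11, adjusted p from 0.0636 to 0.167).

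Rag2 (chr2:101624718-101632529) encodes the other subunit, which also reads a histone mark of active promoters. Values were 9.57, 9.53 and 9.65 in ERT2 WT, 9.54, 9.43 and 9.49 in Cre-ERT2 WT, 9.93, 10.03 and 9.93 in ERT2 KO, and 9.97, 9.91 and 9.89 in Cre-ERT2 KO libraries. The 6 KO libraries stood above the 6 WT libraries, and the ERT2 and Cre-ERT2 groups overlapped within each genotype. Rag2 rose in KO by 0.38 (SE 0.042, adjusted p = 5.21e-06) in ERT2 and by 0.44 (adjusted p = 1.40e-06) in Cre-ERT2 cells. Its β-catenin difference was −0.099 in WT (95% interval −0.19 to −0.0080, adjusted p = 0.162) and −0.042 in KO (−0.13 to 0.048), neither of which was called. The order of the group means was the same for the 2 RAG genes, with ERT2 KO highest, then Cre-ERT2 KO, ERT2 WT and Cre-ERT2 WT. GENCODE places exons of B230118H07Rik over 80 exonic bases of Rag1 on its strand and over 208 bases of Rag2 on the other strand, and how reads there were divided is not given in the sources used here.

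Dntt (chr19:41029275-41059525) encodes TdT. It was at 12.64, 12.66 and 12.63 in ERT2 WT libraries and at 12.97, 12.92 and 12.94 in Cre-ERT2 WT. In ERT2 KO libraries it was at 11.77, 11.74 and 11.81, and in Cre-ERT2 KO at 12.54 in all 3. The ERT2 KO libraries stood apart as the lowest group, and no group overlapped another. With β-catenin stabilized, Dntt rose by 0.30 in WT cells (SE 0.021, adjusted p = 1.81e-06) and by 0.77 in KO cells (adjusted p = 1.46e-10), or 1.23-fold and 1.70-fold once unlogged. The β-catenin effect was larger in KO than in WT by 0.47 (SE 0.030, 95% interval 0.40 to 0.53, interaction adjusted p = 2.04e-06), a comparison in which 4.53% of all genes were called. From WT to KO Dntt fell by 0.87 in ERT2 cells (adjusted p = 3.17e-12) and by 0.40 in Cre-ERT2 cells (adjusted p = 5.33e-09). By size, the β-catenin change in KO ranked 25 among all 12151 genes. All 5 Dntt calls held in every alternative tried.

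Xrcc6 (chr15:81987835-82040085) and Xrcc5 (chr1:72307421-72394952) encode Ku70 and Ku80, the partners of the ring that slides onto a DNA end. The span of Xrcc6 in GENCODE begins upstream of the RefSeq start used for its promoter. Xrcc6 was at 12.21, 12.25 and 12.24 in ERT2 WT, 12.37, 12.30 and 12.36 in Cre-ERT2 WT, 11.57, 11.64 and 11.58 in ERT2 KO, and 11.69, 11.65 and 11.67 in Cre-ERT2 KO libraries. Xrcc5 was at 10.86, 10.87 and 10.88 in ERT2 WT, 11.00, 10.99 and 11.06 in Cre-ERT2 WT, 11.17 in all 3 ERT2 KO, and 11.18, 11.19 and 11.20 in Cre-ERT2 KO libraries. The genes of the 2 partners moved in opposite directions between genotypes, Xrcc6 low and Xrcc5 high in KO, and no KO library overlapped a WT library in either.

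From WT to KO Xrcc6 fell by 0.64 (SE 0.026, adjusted p = 4.40e-10) in ERT2 and by 0.67 (adjusted p = 2.37e-10) in Cre-ERT2 cells. Xrcc5 rose by 0.30 (SE 0.022, adjusted p = 1.19e-07) and by 0.17 (adjusted p = 2.29e-05). With β-catenin in WT cells Xrcc6 rose by 0.11 (adjusted p = 0.0186), a call lost without ERT2 WT replicate 1 or Cre-ERT2 WT replicate 1 or 3 (values from 0.094 to 0.099, adjusted p from 0.0757 to 0.0773), and Xrcc5 rose by 0.15 (adjusted p = 0.000957). In KO cells the differences were 0.071 for Xrcc6 (adjusted p = 0.113) and 0.014 for Xrcc5 (95% interval −0.034 to 0.063), and neither was called. The β-catenin effect on Xrcc5 was smaller in KO than in WT by the interaction term (−0.13, SE 0.032, adjusted p = 0.0358). That call was lost without any 1 library other than Cre-ERT2 WT replicate 2 or Cre-ERT2 KO replicate 3, with values from −0.14 to −0.11 and adjusted p from 0.0505 to 0.0891.

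In plain log2 values, a factor shared by all genes of a library cancels in a difference between 2 genes. The transformation of these values is not stated, so whether it cancels here was not tested. Within a library, Xrcc6 minus Xrcc5 was 1.36 ± 0.011 (SD, n = 3) in ERT2 WT and 1.33 ± 0.040 in Cre-ERT2 WT. It was 0.42 ± 0.039 in ERT2 KO and 0.48 ± 0.022 in Cre-ERT2 KO libraries. The shift from WT to KO was −0.94 in ERT2 and −0.85 in Cre-ERT2 libraries, without overlap, while the ERT2 and Cre-ERT2 groups overlapped within each genotype. The exact 2-sided permutation test gave p = 0.1 for each of the 2 shifts, the smallest that 3 libraries against 3 allow, and 0.2 after adjustment over the 12 differences of this kind. These are differences of log2 values not scaled by gene length, so they do not give the ratio of the proteins or of the transcripts.

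Prkdc (chr16:15637866-15842235) encodes DNA-PKcs and Dclre1c (chr2:3424131-3464130) encodes Artemis, which DNA-PKcs activates. Prkdc was between 10.94 and 11.07 in 9 libraries and at 11.11, 11.12 and 11.12 in the Cre-ERT2 KO libraries, which stood above all others. Its rise was 0.11 (SE 0.034, adjusted p = 0.0481) for β-catenin in KO and 0.090 (adjusted p = 0.0367) for KO against WT in Cre-ERT2 cells. The first call was lost without any 1 library other than Cre-ERT2 WT replicate 1 (values from 0.078 to 0.13, adjusted p from 0.0504 to 0.185). The second was lost without Cre-ERT2 WT replicate 1 or 3 or any 1 Cre-ERT2 KO replicate (values from 0.062 to 0.097, adjusted p from 0.0546 to 0.155). Centring each library on its median ended both calls, at 0.10 (adjusted p = 0.0678) and 0.056 (adjusted p = 0.173). Dclre1c ranged from 7.58 to 7.83, its widest spread lay within ERT2 WT (SD 0.12), and its differences were between −0.0014 and 0.019. The 95% intervals of Dclre1c lay between −0.14 and 0.16 in the 4 comparisons of groups, and the interval of its interaction ran from −0.18 to 0.21. Changes within these intervals are not excluded, and the size of change that an adjusted call would need was not computed. Dclre1c minus Prkdc overlapped between groups in all 4 comparisons.

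Lig4 (chr8:9969049-9977686) encodes DNA ligase IV, and Xrcc4 (chr13:89774027-90089608) encodes the scaffold that holds and stabilizes the ligase. Lig4 was at 8.92, 8.86 and 8.84 in ERT2 WT, 9.27, 9.34 and 9.29 in Cre-ERT2 WT, 8.11, 8.03 and 8.10 in ERT2 KO, and 8.36, 8.36 and 8.32 in Cre-ERT2 KO libraries. The 4 groups were separate, and the spread over libraries, 1.31, was the widest of the 10 genes. Lig4 rose with β-catenin by 0.43 in WT (SE 0.032, adjusted p = 2.94e-06) and by 0.26 in KO (adjusted p = 0.000162). From WT to KO it fell by 0.79 (adjusted p = 3.85e-10) in ERT2 and by 0.96 (adjusted p = 5.76e-11) in Cre-ERT2 cells. The β-catenin effect was 0.17 smaller in KO cells, which was not called (interaction −0.17, 95% interval −0.27 to −0.066, adjusted p = 0.0663), although it was without ERT2 KO replicate 2 (−0.19, adjusted p = 0.0460) and when the eBayes prior had no mean trend (adjusted p = 0.0464).

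Xrcc4 ranged from 7.74 to 7.84 over the 12 libraries, and all groups overlapped. Lig4 minus Xrcc4 was 1.10 ± 0.024 (SD, n = 3) in ERT2 WT, 1.49 ± 0.044 in Cre-ERT2 WT, 0.28 ± 0.011 in ERT2 KO and 0.56 ± 0.060 in Cre-ERT2 KO libraries. No 2 groups compared overlapped, with shifts of 0.40 and 0.28 for β-catenin and of −0.82 and −0.93 for KO. Each had the smallest p of the exact permutation test, 0.1 (0.2 adjusted). Nhej1 (chr1:74967139-75125200), which encodes XLF, the bridging partner of XRCC4, ranged from 5.45 to 5.52 and was called in no comparison as deposited. When libraries were centred on their medians it was called in KO against WT, at −0.053 and −0.059 (adjusted p = 0.0213 and 0.0119), and quantile normalization called it too, with Xrcc4 in Cre-ERT2 cells (−0.091, adjusted p = 0.0332). Nhej1 was at the 18.5th percentile of the genes by mean level and had the smallest range of the 10 genes, 0.063. The transformation behind the log2 values is not stated, and whether it narrows low values was not tested.

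**Figure D2:**
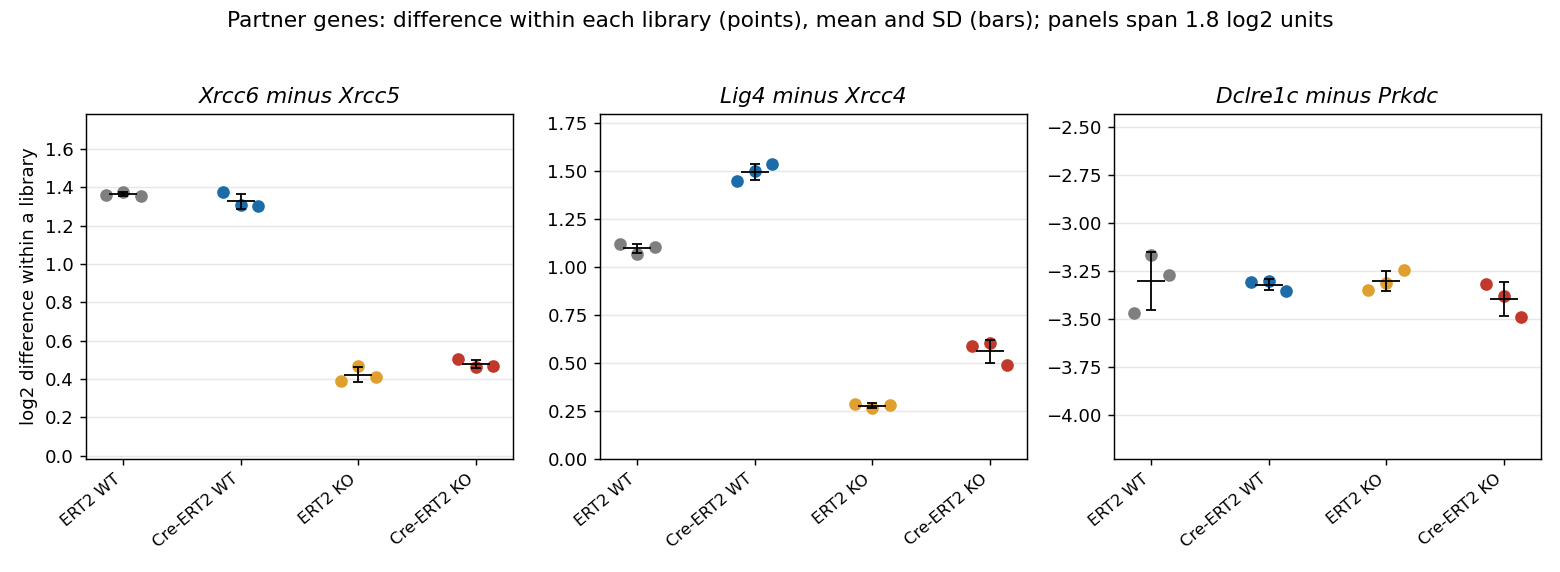
Difference in log2 expression between the genes of partner proteins within each library (vertical axes, each spanning 1.8 log2 units), with points for libraries and bars for the group mean and SD (n = 3). Xrcc6 minus Xrcc5 lies at 1.33 to 1.36 in the WT groups and at 0.42 to 0.48 in the KO groups, Lig4 minus Xrcc4 differs between all groups compared, and Dclre1c minus Prkdc overlaps.

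**Figure D3:**
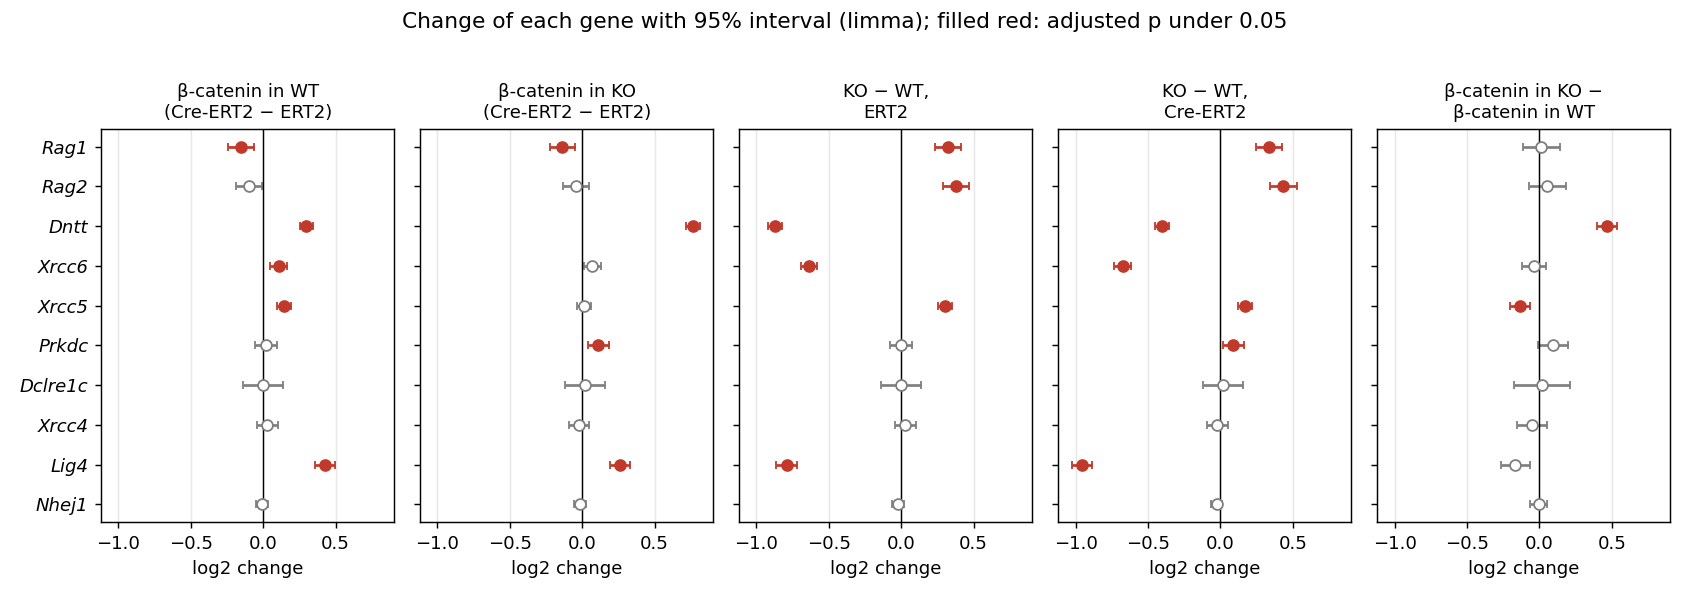
Log2 change of each gene (horizontal axes) in the 5 comparisons, with the 95% interval from limma. Filled points passed an adjusted p of 0.05. Dntt reaches 0.77 for β-catenin in KO cells and Lig4 −0.96 for KO in Cre-ERT2 cells, while the points of Dclre1c, Xrcc4 and Nhej1 stay near 0.

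Among the members, 3 share a start region with a gene on the opposite strand, by RefSeq starts within 1000 bases. Abhd13 starts 37 bases from Lig4, Tmem167 59 bases from Xrcc4 and Desi1 149 bases from Xrcc6. From WT to KO, Desi1 fell by 0.70 in ERT2 and by 0.78 in Cre-ERT2 cells, and rose by 0.13 with β-catenin in WT cells (adjusted p = 0.0387). Abhd13 fell by 0.31 and by 0.27, and rose with β-catenin by 0.11 in WT and by 0.15 in KO cells, all called. Tmem167 fell by 0.30 and by 0.28, where Xrcc4 differed by 0.029 and −0.022. Exons of Xrcc6 and Desi1 overlap over 344 bases on opposite strands, those of Xrcc4 and Tmem167 over 112 bases, and those of Dclre1c and Suv39h2 over 357 bases. The library kit keeps strand, but whether the counting used it is not given in the sources used here, so reads in these stretches may have been shared.

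For each of the 7 members called at least once, the genes closest to it over the 12 libraries were ranked by the root mean square (RMS) difference after each gene was centred on its own mean. Closest to Dntt were Ctse (RMS 0.091), Irf4 (0.096) and Eps8 (0.11), where Dntt's own RMS about its mean was 0.43. Irf4, a transcription factor of the pre-B stage, rose with β-catenin by 0.26 in WT and by 0.51 in KO and fell by 0.77 from WT to KO in ERT2 cells. Closest to Lig4 were Apobec1 (0.076), Epsti1 and Atp2a3 (both 0.078), beside an RMS of 0.47 for Lig4. Closest to Xrcc6 were Clgn, Nxpe3 and Tmem86a (0.033 to 0.038, beside 0.33), and to Xrcc5 Txndc12, Acads and Cpt1a (0.026 to 0.035, beside 0.13). Rag1 was closest to Carm1, Plcb3 and Ethe1 (0.049 each, beside 0.19), and Rag2 to E330009J07Rik, Cdc16 and Fam212a (0.037 to 0.041, beside 0.21). For Prkdc they were Ccdc88a, Nsmce4a and Shf (0.023 to 0.035, beside 0.058). The 12 points share 4 groups, and these distances are a description without a test.

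Beside the members, 5 lists of other genes of the pathway were examined. The list of factors that act with RAG or control the RAG genes held 27 genes, all in the table, among them the edited Ikzf1 and Ikzf3. With β-catenin in WT cells 7 of them rose and 3 fell (5.93% and 5.95% of all genes), and in KO cells 5 rose and 5 fell (7.27% and 5.33%). Gfi1b, a repressor of transcription, rose by 0.45 and 0.76, Myb, a transcription factor of progenitors, by 0.43 and 0.40, whereas Pax5, the factor of B cell commitment, fell by 0.22 and 0.30 and Bcl11a fell by 0.15 and 0.23. KO against WT, 5 rose and 16 fell in ERT2 cells (29.8% and 29.3% of all genes), and 6 rose and 17 fell in Cre-ERT2 cells (30.4% and 28.6%). The median change of this list was −0.12 and −0.23, beside 0.0016 over all genes in each comparison. Spib, an ETS factor of B cells, fell by 2.80 in each, and of the FOXO family, which drives RAG transcription, Foxo3 rose by 0.27 and 0.28 while Foxo1 fell by 0.12 and 0.30.

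Accessory end-joining factors were in the table for 12 of 14 genes. No gene of this list was called for β-catenin in WT cells by limma, where 11.9% of all genes were (1 of 12 had an unadjusted p under 0.05, and 1 was called when the fit held the compared groups alone). In KO cells 1 rose and 1 fell, beside 7.27% and 5.33% of all genes, and 7 of 12 had an unadjusted p under 0.05. The share of all genes with an unadjusted p under 0.05 was not counted. Counts at an unadjusted p, here and below, therefore have no background and are not read as a response of a list. In KO against WT, 2 rose and 1 fell in ERT2 cells and 3 rose and 1 fell in Cre-ERT2 cells. Aplf, a scaffold recruited by Ku, rose by 0.36 and 0.27, and Poll, a gap-filling polymerase, rose by 0.13 in each. All genes were called at 59.0% and 58.9% in these comparisons.

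Genes of break signalling and end protection were in the table for 17 of 22. For β-catenin 2 fell in WT cells, Nbn by 0.16 and Mdc1 by 0.16, where 5.95% of all genes fell. The call of Mdc1 was lost without ERT2 WT replicate 2 or 3 or any 1 Cre-ERT2 WT replicate (adjusted p from 0.0682 to 0.126). In KO cells limma called 0 of 17, beside 12.6% of all genes, and 0 had an unadjusted p under 0.05. In KO against WT, 8 rose and 5 fell in ERT2 cells, and 9 rose and 5 fell in Cre-ERT2 cells, where 59.0% and 58.9% of all genes were called. Trp53bp1, which shields ends from resection, rose by 0.36 and 0.31 and Nbn, a subunit of the complex that senses ends, rose by 0.30 and 0.41. Atm, the kinase that signals breaks, fell by 0.42 and 0.48.

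Alternative end joining was covered by 9 of 9 genes and homologous recombination by 25 of 25. In KO against WT in ERT2 cells, 3 rose and 2 fell in the first list and 6 rose and 10 fell in the second. In Cre-ERT2 cells these were 5 and 1, and 8 and 7. The share of each list called was 55.6% and 64% in ERT2 and 66.7% and 60% in Cre-ERT2 cells, beside 59.0% and 58.9% of all genes. Parp1, which binds broken DNA in the alternative route, rose by 0.20 in each, and Fen1, a flap nuclease, fell by 0.33 and 0.25. Xrcc2 fell by 0.40 and 0.44. With β-catenin in WT cells, 2 genes fell in each of these lists and none rose (11.9% of all genes were called), and in KO cells, beside 12.6% of all genes, limma called 0 of 9 (1 at an unadjusted p under 0.05) and 2 of 25 (1 up and 1 down). The interaction called no gene of these lists by limma other than 6 of 27 RAG cofactors and regulators, where unadjusted p under 0.05 held for 1 of 12 accessory, 3 of 17 signalling, 2 of 9 alternative and 3 of 25 recombination genes.

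**Figure D4:**
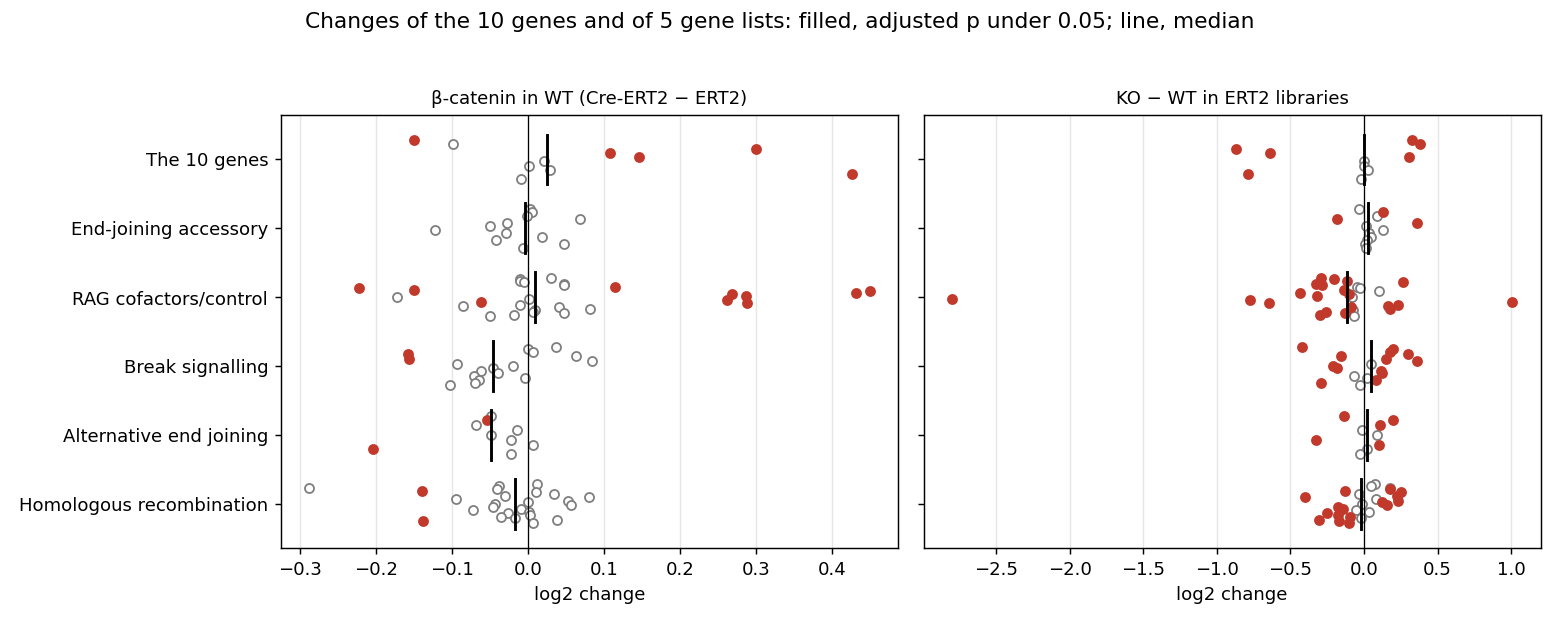
Log2 change (horizontal axes) of each of the 10 genes and of the genes of 5 lists, for β-catenin in WT cells (left) and for KO against WT in ERT2 cells (right). Filled points passed an adjusted p of 0.05 and lines mark medians, which stay within 0.05 of 0 except for the list of RAG cofactors and control on the right, at −0.12.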

How the data were processed

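RNA was measured in 12 libraries, each made from 280 ng of RNA with 10 cycles of PCR and a stranded mRNA kit. Per the methods and the submitters' processing notes, the authors used Salmon 1.4.0 to quantify the paired-end reads, aligned them with STAR 2.7.6 to mm10/GRCm38 and analyzed them with DESeq2 1.30.1. The deposited table holds log2 values for 12151 genes, normalized between libraries by the authors. The transformation and the filter on genes are not given in the sources used here, and without counts the depth is unknown and no counting interval was given. Values are not per gene length, so a gene's place relative to the median gene or a percentile of all genes is a place in this table and not a comparison of transcript abundance.

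A linear model with 4 group means was fitted to all genes with limma 3.58.1 in R 4.3.3 (eBayes with a mean trend). P-values were adjusted over 12151 genes (Benjamini-Hochberg), and genes were called under 0.05. The 5 contrasts were Cre-ERT2 against ERT2 in WT and in KO, KO against WT in ERT2 and in Cre-ERT2, and the interaction. Differences between partner genes were compared by exact 2-sided permutation tests. Alternatives changed the scaling, the prior, the pseudocount, the filter on low means, the threshold, the libraries in the fit and the replicate block.

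Genes named were all 10 members, Ikzf1, Ikzf3 and Ctnnb1, the head-to-head neighbours, the 3 closest genes per called member and, per list and contrast, examples from the called genes with the largest changes (up to 3 in each direction). The members and lists were chosen with earlier results of these data known. Positions came from GENCODE vM21 and promoters from RefSeq GRCm38.p6. Of the 10 members, 9 had a promoter entry.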

Additional observations from a re-analysis of the deposited data

Results flagged for a closer look

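Groups of 3 libraries were too small for a test of single outlying libraries. The results listed here drew attention because the β-catenin effect differed between KO and WT cells by the interaction term of limma, with p-values adjusted over all genes, of which 4.53% were called. Among the members these were Dntt, whose effect was 0.47 larger in KO (adjusted p = 2.04e-06, groups without overlap in either genotype), and Xrcc5, whose effect was smaller in KO (−0.13, adjusted p = 0.0358).

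In the list of RAG cofactors and regulators, 6 of 27 genes were called. Irf4, at 0.25 (adjusted p = 0.00214), rose more in KO than in WT. Ets1, an ETS factor of lymphocytes, differed by −0.37 (adjusted p = 6.74e-05), as it rose by 0.27 in WT and fell by 0.10 in KO cells. Ebf1, a factor of early B cells, differed by −0.19 (adjusted p = 0.0175). Gfi1b differed by 0.31 (adjusted p = 0.0391), a call lost without any 1 library other than Cre-ERT2 WT replicate 2 or Cre-ERT2 KO replicate 2 (values from 0.27 to 0.33, adjusted p from 0.0556 to 0.0965). Foxo1 differed by −0.18 (adjusted p = 0.0367), a call lost without any 1 library other than ERT2 WT replicate 2 or Cre-ERT2 KO replicate 3 (values from −0.20 to −0.15, adjusted p from 0.0561 to 0.0898). The calls of Dntt, Irf4, Ets1 and Ebf1 held without each of the 12 libraries in turn.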

How the results depend on the processing

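In each alternative tried, Dntt and Lig4 kept their calls and directions in the 4 comparisons of groups, as did Rag1, Rag2, Xrcc6 and Xrcc5 in KO against WT and Xrcc5 for β-catenin in WT. The number of members called for β-catenin in KO cells, 4 as reported, was 2 with the compared groups alone, 2 at an adjusted p under 0.01 and 2 to 3 when 1 library was left out. For β-catenin in WT it was 5 as reported (1443 genes) and 3 at 0.01 (787). With 1 library left out it was 3 to 5 (1026 to 1659), and 3 without Cre-ERT2 WT replicate 1 or 3. For the interaction it was 2 as reported (550 genes) and 1 at 0.01 (240). Without the mean trend it was 3 (558), with Lig4 added, and with 1 library left out 1 to 2 (383 to 595). For KO against WT it was 6 in ERT2 (6609 to 7314) and 6 to 7 in Cre-ERT2 cells (6690 to 7157) with 1 library left out. The scaling mattered more. Quantile normalization called 3 members higher and 4 lower in ERT2 (7276) and 4 higher and 5 lower in Cre-ERT2 cells (7397). Median centring called 3 higher and 4 lower in each (7613 and 7772). Rag1 for β-catenin in KO also lost its call with the compared groups alone (adjusted p = 0.125), without the mean trend (0.0568) and with the replicate block (0.0683). Xrcc5 for the interaction lost its call with the replicate block (0.0536). Prkdc lost its call for β-catenin in KO with median centring (0.0678), quantile normalization (0.0613), the compared groups alone (0.0958) and the replicate block (0.0803), and for KO in Cre-ERT2 with centring (0.173) and the block (0.0569). The cause was not tested. Sign changes were seen only in differences that were not called. With median centring these were Dclre1c for β-catenin in WT (−0.0040), Xrcc4 for KO in ERT2 (−0.0032) and Dclre1c for KO in Cre-ERT2 (−0.018). With quantile normalization they were −0.0011, −0.030 and −0.049 for the same genes and comparisons, and 0.0045 for Prkdc for KO in ERT2. With 1 library left out, Dclre1c ran from −0.059 to 0.063 for β-catenin in WT, −0.020 to 0.066 in KO, −0.063 to 0.060 for KO in ERT2, −0.020 to 0.063 in Cre-ERT2 and −0.044 to 0.079 for the interaction, Nhej1 from −0.019 to 0.0038 for β-catenin in WT and −0.018 to 0.0049 for the interaction, Prkdc from −0.020 to 0.032 for KO in ERT2, and Rag1 from −0.029 to 0.046 for the interaction. Among the lists, counts of 0 to 2 for β-catenin ran from 0 to 3. The 6 RAG cofactors and regulators called for the interaction became 2 to 3 in 10 alternatives (8 of them leaving out 1 library). For the interaction, 1 recombination gene was called without Cre-ERT2 WT replicate 1. The 15 recombination genes called for KO in Cre-ERT2 cells became 9 at 0.01, where all genes called went from 7161 to 5872. The filter on means above 8 left out Xrcc4, Dclre1c and Nhej1. With the replicate number as a block, 5 members were called for β-catenin in WT (1361 genes) and 2 in KO (1374). In that fit they were 6 and 6 for KO against WT (7089 and 7108) and 1 for the interaction (424). Correlations of deviations over 7729 genes ran from −0.091 to 0.31 (median −0.0055) in 18 pairs of libraries of the same number. In 36 pairs of different number they ran from −0.35 to 0.36 (median −0.010). Both medians were near 0, and with 3 libraries per group this cannot show whether the numbers pair the libraries. Small differences in weakly expressed genes cannot be judged, as depth is unknown.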
